A study of Mus musculus with 16 samples.

Results

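The 6 genes described here, *S1pr1*, *S1pr4*, *Ccr7*, *Klf2*, *Foxo1* and *Cd69*, govern the recirculation of T cells through lymph nodes. They were chosen by name, with earlier results of these data known. The lung and mesenteric lymph node (MLN) matrices held 31053 genes, and the mediastinal lymph node (medLN) and MLN matrix held 32285. Each of the 6 was found there by symbol and detected in all 12 samples. A resting T cell enters a lymph node from blood with the help of CCR7, a receptor for chemokines made in the node, and leaves it along a gradient of sphingosine-1-phosphate (S1P) through the receptor S1PR1. KLF2 is a transcription factor that drives *S1pr1*, and FOXO1 acts upstream of *Klf2* and *Ccr7* in resting T cells. CD69 is induced early after activation, binds S1PR1 and removes it from the cell surface, and S1PR4 is a further S1P receptor of lymphocytes.

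The promoters of *Klf2* and *S1pr4* are shown because both genes were detected in the same cells as *S1pr1* more often than the product of their shares in all 12 samples, and because KLF proteins bind CACCC boxes. RefSeq promoter windows of 300 bases on GRCm38.p6, from 250 before to 50 after the start site, were found for 3 of the 6 genes, *S1pr4*, *Klf2* and *Foxo1*. The windows printed lie at chr8:72318812-72319111 on the plus strand (*Klf2*) and at chr10:81500088-81500387 on the minus strand (*S1pr4*), and capitals mark matches on either strand to the KLF box CACCC (read as GGGTG), the FOXO core TAAACA or a MEF2 site, the longest run of capitals, which reads the same on both strands.
Klf2: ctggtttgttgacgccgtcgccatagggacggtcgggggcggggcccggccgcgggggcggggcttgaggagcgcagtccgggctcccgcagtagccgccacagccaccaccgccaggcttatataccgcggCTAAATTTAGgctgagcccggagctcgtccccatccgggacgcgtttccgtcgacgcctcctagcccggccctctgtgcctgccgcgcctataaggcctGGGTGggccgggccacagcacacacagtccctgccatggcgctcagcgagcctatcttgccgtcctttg
S1pr4: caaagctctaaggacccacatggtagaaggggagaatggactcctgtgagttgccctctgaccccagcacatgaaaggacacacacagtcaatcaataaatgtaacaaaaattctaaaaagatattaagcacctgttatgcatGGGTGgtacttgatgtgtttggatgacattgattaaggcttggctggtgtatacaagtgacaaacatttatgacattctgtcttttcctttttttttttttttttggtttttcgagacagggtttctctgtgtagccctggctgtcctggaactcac
The *Klf2* window held a KLF box at position -19 from the start site and the MEF2 site at position -118, and the *S1pr4* window held a KLF box at position -107. A KLF box stood in 57.5% of the 32851 promoter windows of this length. The MEF2 site, picked after the *Klf2* window had been read, stood in 13 of them (0.0396%). The FOXO core, present in 13.4% of all windows, was in none of the 3 windows, and the *Foxo1* window held none of these motifs but 5 GC boxes (GGGCGG on either strand, in 35.7% of all windows). A match is a description of the letters and was not tested as a binding site.

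The cells came from IL-4eGFP reporter (4get/C57BL/6) mice, in which green fluorescence marks cells with an active *Il4* locus, 10 days after subcutaneous injection of 500 larvae of the helminth *Nippostrongylus brasiliensis*. CD4+IL-4eGFP+ (Th2) cells of lung and MLN from 2 mice aged 13 weeks gave 4 gene expression libraries with matched T-cell receptor (TCR) libraries. The study calls all cells of this gate Th2, though they likely include NKT cells and cells that do not complete Th2 differentiation. It describes clusters with follicular helper cells and with innate-like or NKT cells in MLN, so the mix of cells can differ between the organs. In a second run, CD4+ cells of medLN and MLN from 2 other mice aged 10 weeks carried hashtag antibodies for mouse and node and were sorted into IL-4eGFP+ and IL-4eGFP- cells, with 1 library for each gate and 8 hashtag samples in all. Every mouse was infected and drank antibiotics with its water, so no group shows the uninfected state. The perfused lung kept some intravascular cells. A gate and its library cannot be told apart, and neither can lung and its enzymatic digestion, since lymph nodes were only mashed. The runs differed in mice, hashtag labelling and pooling, depth per cell, version of the counting software and the TCR required of a cell. No test was therefore made between them.

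The 12 samples held 416 to 2462 cells and 2798232 to 14512767 unique molecular identifiers (UMIs, the molecules counted), with a median of 3165.5 to 6910 UMIs per cell. *Il4*, which the gate follows, was at 318 to 447 CPM (counts of the gene per 1000000 UMIs of the sample) in the first run, at 153 to 188 CPM in the IL-4eGFP+ hashtag samples and at 0 to 0.399 CPM in the IL-4eGFP- samples. The 5 T cell markers summed to 3273 to 4653 CPM with none at 0. Markers of other cells were low: B cell genes summed to at most 48.5 CPM, myeloid genes to at most 110 CPM and CD8 and NK genes to at most 77.2 CPM, endothelial genes summed to 35.6 to 38.4 CPM in lung with 4 of 5 at 0 and to 51.3 to 71.0 CPM elsewhere, and neutrophil and erythroid genes stayed at or below 1.13 CPM. The myeloid sum was 4.83 to 6.09 CPM in lung and 27.2 to 41.5 CPM in MLN, exocrine pancreas genes reached 99.3 CPM in MLN of mouse 2, and the part of these in the results was not tested. Up to 155 cell barcodes were shared between any 2 libraries, the highest number being between the 2 gates with 9603 and 10080 barcodes.

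Expression in Th2 cells of lung and MLN was compared first. Of the 6 genes, 5 were higher in lung by the quasi-likelihood test of edgeR on summed UMI counts, *S1pr1*, *S1pr4*, *Ccr7*, *Klf2* and *Cd69*, and *Foxo1* did not pass the threshold of an adjusted p of 0.05. In this comparison 31.0% of the 10587 genes tested were called, 17.0% as higher and 14.0% as lower in lung. The median log2 fold change was 0.96 over the 6 genes and -0.0052 over all genes tested. Unscaled CPM ratios lay 0.12 below the scaled log2 fold changes at the median of all genes, with *Foxo1* at 0.025. In these sums, lung thus held more of the receptor transcripts for entry and egress, and also more of the transcript of the S1PR1 antagonist. Whether the same cells held both is not shown by sums. In sums over cells, fewer expressing cells and less RNA per cell cannot be told apart. With 2 mice in each group, these p-values measure the spread between those mice only.

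*S1pr1* (chr3:115710433-115715072, minus strand, GRCm38) was at 57.2 and 105 CPM in lung of mice 1 and 2 and at 42.9 and 44.9 CPM in MLN. Both lung samples were above both MLN samples, but the lung of mouse 2 was far above that of mouse 1. The difference on the log2 scale was 0.96 ± 0.20 (SE, n = 2 for each organ, adjusted p = 0.0065 by edgeR), and it was 0.59 without the lung of mouse 2 and 1.33 without that of mouse 1. *S1pr4* (chr10:81497747-81500132, minus strand) was at 90.2 and 113 CPM in lung and at 56.9 and 57.0 CPM in MLN, a difference of 0.95 ± 0.12 (SE, adjusted p = 0.00027 by edgeR). The lung samples again lay above both MLN samples.

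*Ccr7* (chr11:99144196-99155077, minus strand) was at 75.5 and 89.97 CPM in lung and at 39.8 and 41.5 CPM in MLN. The groups did not overlap, with a log2 fold change of 1.15 ± 0.12 (SE, adjusted p = 8.3e-05 by edgeR). Among the transcription factors, *Klf2* (chr8:72319033-72321656, plus strand) was at 65.4 and 103 CPM in lung and at 49.5 and 51.9 CPM in MLN, a difference of 0.83 ± 0.16 (SE, adjusted p = 0.0043 by edgeR) without overlap. *Foxo1* (chr3:52268336-52353221, plus strand) was at 43.5 and 28.0 CPM in lung and at 37.4 and 32.8 CPM in MLN. The 2 lung values of *Foxo1* enclosed both MLN values, and the log2 fold change was 0.23 ± 0.21 (SE, adjusted p = 0.45 by edgeR, 95% interval -0.19 to 0.64). It turned to -0.29 without the lung of mouse 1 and passed the threshold at 0.50 (adjusted p = 0.019 by edgeR) without that of mouse 2.

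*Cd69* (chr6:129267325-129275436, minus strand) differed most, with 316 and 334 CPM in lung and 106 and 79.5 CPM in MLN. Its log2 fold change was 1.93 ± 0.15 (SE, adjusted p = 1.4e-05 by edgeR), that is 3.80-fold. The 15 genes of early response and dissociation, which include *Fos*, *Jun* and heat shock genes induced during tissue digestion, summed to 9117 to 9561 CPM in lung and 1062 to 1397 CPM in MLN. Their part in the *Cd69* difference was not tested. For 5 genes, all but *Foxo1*, the lung CPM lay above MLN in both mice, while 25.0% of all genes tested had both lung samples above both MLN samples and 43.8% had both below. Cells with a *Mki67* or *Top2a* UMI, that is cycling cells, made up 22.4% to 27.7% of lung and 13.4% to 13.9% of MLN cells, and without them the same 5 genes were called.

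**Figure D1:**
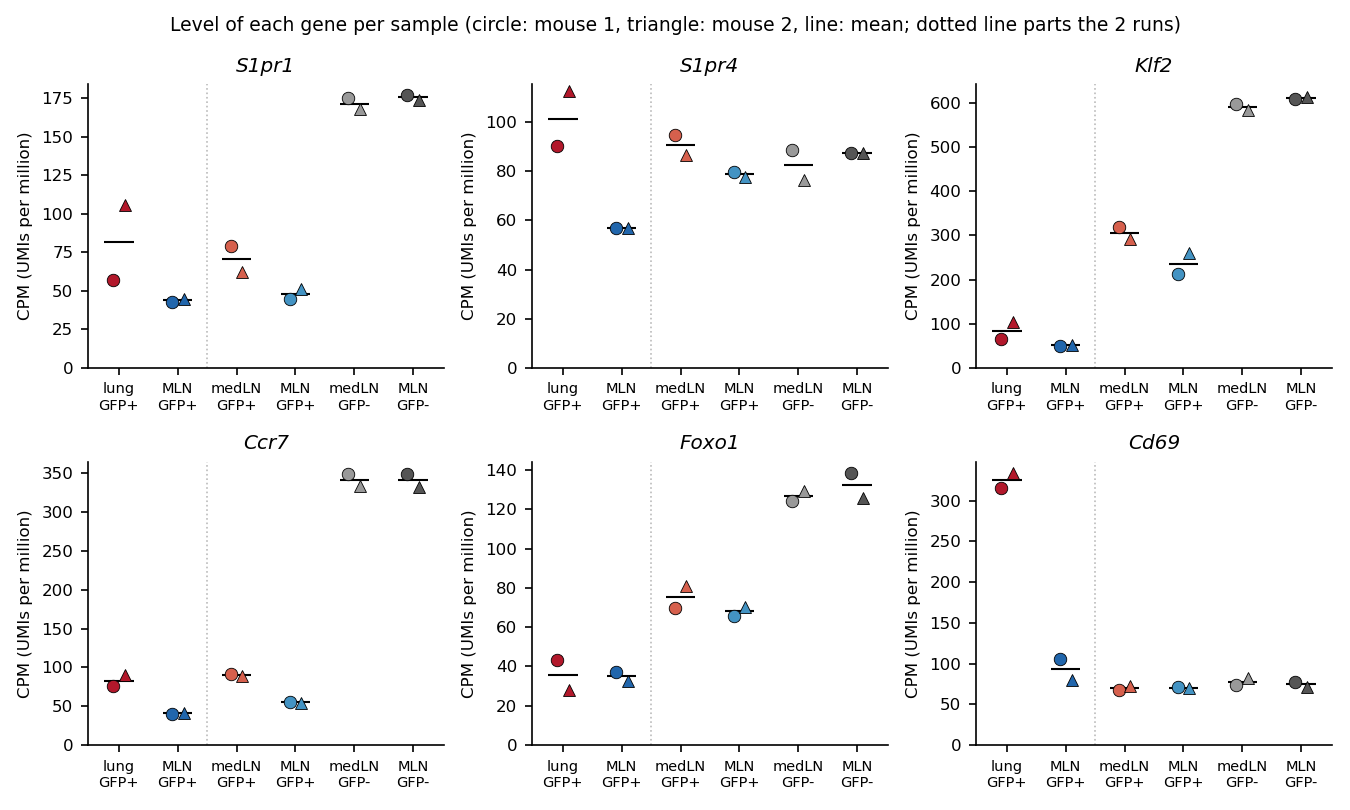
Level of each of the 6 genes in CPM (linear axis from 0) in the 12 samples, with circles for mouse 1, triangles for mouse 2, lines for the mean of the 2 mice and a dotted line between the 2 runs. Lung *Cd69* lies at 316 and 334 CPM above every other sample, and IL-4eGFP- cells are highest for *S1pr1*, *Klf2*, *Ccr7* and *Foxo1*.

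The share of cells with a UMI was then compared in cells reduced to 1500 randomly drawn UMIs each, because lung cells held more UMIs, with medians of 6910 and 5765.5 against 4980 and 4971 in MLN (4 to 84 cells per sample held fewer UMIs and were not used). *Cd69* was found in 31.0% and 33.7% of thinned lung cells and in 12.995% and 9.73% of MLN cells. Without thinning the shares were 66.1% and 68.8% in lung and 29.7% and 21.4% in MLN. *S1pr4* was found in 12.6% and 16.5% of lung cells against 7.36% and 9.07% of MLN cells, and *S1pr1* in 7.53% (95% interval 6.03 to 9.28, exact binomial) and 11.7% against 5.39% (4.53 to 6.36) and 6.00%. *S1pr4*, like *Cd69*, was thus found in more lung cells than MLN cells, while the intervals of *S1pr1* in mouse 1 overlapped. These intervals cover counting error only. At 1000 UMIs per cell, *S1pr1* was found in 4.07% of lung 1 and 4.84% of MLN 1 cells.

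For *Ccr7* the share of cells differed less between organs than the level did. Thinned to 1500 UMIs, 6.51% (95% interval 5.11 to 8.16, exact binomial) and 7.52% of lung cells and 4.82% (4.01 to 5.75) and 5.33% of MLN cells had a *Ccr7* UMI, and without thinning the shares were 12.3% and 15.6% against 12.4% and 14.1%. The *Ccr7* UMIs of lung were instead concentrated in few cells. At a limit of 5 UMIs per cell, chosen after the values had been seen, 43 cells (3.97%) of lung 1 and 17 cells (4.09%) of lung 2 held 76.3% and 61.4% of all *Ccr7* UMIs. In MLN, 20 cells (0.812%) and 3 cells (0.398%) at this limit held 30.4% and 9.19%.

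In lung, *Klf2*, *S1pr1* and *Cd69* were less concentrated than *Ccr7*. *Klf2* cells with at least 5 UMIs were 3.14% and 4.57% of lung cells with 56.9% and 51.7% of the UMIs, and 1.54% and 1.59% of MLN cells with 37.2% and 34.2%. For *S1pr1* such cells were 2.31% and 2.88% of lung cells, with 34.6% and 26.9% of the UMIs. The *Klf2* share at 1500 UMIs was 5.58% and 8.98% in lung and 5.07% and 5.47% in MLN. Cells with under 5 UMIs of *Klf2* held 28.1 and 49.7 CPM of it in lung and 30.9 and 33.9 CPM in MLN. For *S1pr1* these values were 37.3 and 76.8 CPM in lung and 37.5 and 42.0 CPM in MLN. At full depth, the higher lung level of both genes in mouse 1 thus lay in cells with at least 5 UMIs. Cells with more UMIs in all reach a fixed number of UMIs of a gene more often. At 1500 UMIs per cell, cells with at least 3 *S1pr1* UMIs held 17.0% of its UMIs in lung 1 and 19.9% in MLN 1. The full-depth pattern was thus not seen for *S1pr1* at equal depth. For *Klf2* these shares were 35.7% and 15.1%. In mouse 2 they were 9.38% and 5.66% for *S1pr1* and 18.4% and 19.3% for *Klf2*. With cells thinned to 1500 UMIs, at least 3 *Ccr7* UMIs were found in 12 cells of lung 1 (1.12%) and 12 cells of lung 2 (2.91%) and in 8 cells of MLN 1 (0.327%), and in no cell of MLN 2 among 750.

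**Figure D2:**
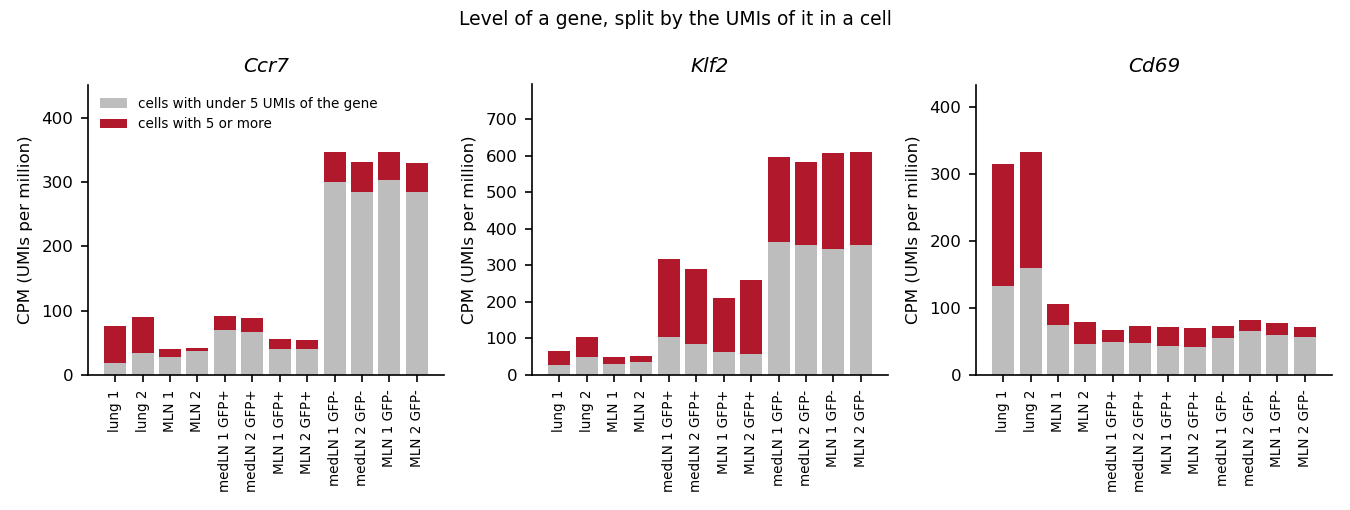
Level of *Ccr7*, *Klf2* and *Cd69* in each of the 12 samples in CPM (linear axis from 0), with bars stacked from cells with under 5 UMIs of the gene (gray) and cells with 5 or more (red). Red makes up 76.3% and 61.4% of the *Ccr7* bars of lung and 30.4% and 9.19% of those of MLN in the same run.

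The lymph nodes of the second run allowed the comparison of 2 draining sites within 1 library. Among IL-4eGFP+ cells, *Ccr7* was the only one of the 6 genes called, as higher in medLN, while 1.28% of the 11262 genes tested were called, 0.675% as higher and 0.604% as lower in medLN. *Ccr7* was at 91.6 and 89.5 CPM in medLN and at 55.5 and 54.6 CPM in MLN of mice 1 and 2. The nodes did not overlap, with a log2 fold change of 0.71 ± 0.07 (SE, n = 2 for each node, adjusted p = 0.0040 by edgeR). Without medLN of mouse 1 the adjusted p was 0.052 at a log2 fold change of 0.68, and over the 13 alternatives it ranged from 9.2e-06 to 0.052. The share of cells with a *Ccr7* UMI at 1500 UMIs was 11.96% and 11.4% in medLN and 6.44% and 7.20% in MLN.

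*S1pr1* was at 79.1 and 62.2 CPM in medLN and at 44.4 and 50.8 CPM in MLN, and its difference of 0.56 ± 0.12 (SE, adjusted p = 0.093 by edgeR) did not pass the threshold. *Klf2* was at 318 and 291 CPM in medLN against 212 and 260 CPM in MLN, with a difference of 0.36 ± 0.10 (SE, adjusted p = 0.17 by edgeR). Both genes passed with DESeq2 at an adjusted p of 0.0499. Leaving out 1 sample, *S1pr1* ranged from 0.37 without medLN 1 (adjusted p = 0.41 by edgeR) to 0.73 without medLN 2 (adjusted p = 0.060), and *Klf2* from 0.21 without MLN 1 (adjusted p = 0.28) to 0.53 without MLN 2 (adjusted p = 0.024). *S1pr4* was at 94.8 and 86.6 CPM in medLN and 79.8 and 77.7 CPM in MLN, and its difference of 0.19 did not pass (adjusted p = 0.31 by edgeR). In 4 of the 6 genes both medLN samples lay above both MLN samples, as in 23.5% of all genes tested, and 19.6% had both below. *Foxo1* and *Cd69* overlapped between the nodes, with log2 fold changes of 0.13 (95% interval -0.034 to 0.30) and -0.0098 (-0.14 to 0.12), and the sign of *Cd69* turned in 3 of the 13 alternatives.

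In IL-4eGFP- cells of the same nodes, none of the 6 genes was called by edgeR or by DESeq2, and 0 had an unadjusted p below 0.05, while 0.178% of the 10683 genes tested were called, 0.150% as higher and 0.0281% as lower. *Ccr7* was at 349 and 333 CPM in medLN and at 349 and 332 CPM in MLN. The log2 fold changes of the 6 genes lay between -0.14 and 0.0058, and only *Klf2*, with 598 and 585 CPM in medLN against 609 and 614 CPM in MLN, was lower without overlap, as were 8.93% of all genes, while 27.9% were higher and 36.8% in all were without overlap. The difference between medLN and MLN was therefore compared between the gates in 1 fit. *Ccr7* differed, with a log2 difference of 0.77 ± 0.07 (SE, adjusted p = 0.0027 by edgeR), while 0.156% of the 11534 genes tested were called, 0.0694% with a larger and 0.0867% with a smaller difference in IL-4eGFP+ cells. It was called in 16 of 16 alternatives. The other 5 genes were not called, with 0.65 ± 0.15 for *S1pr1* (SE, adjusted p = 0.20 by edgeR) and 0.47 ± 0.12 for *Klf2* (SE, adjusted p = 0.38 by edgeR).

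The gate was compared next, over both nodes. All 6 genes were lower in IL-4eGFP+ than in IL-4eGFP- cells by the edgeR test, though *Cd69* turned to 0.075 without cycling cells, against 62.1% of the 11534 genes tested that were called, 30.3% as lower. The median log2 fold change was -1.20 over the 6 genes and -0.0090 over all genes. *Ccr7* fell most, from 332 to 349 CPM in the 4 IL-4eGFP- samples to 54.6 to 91.6 CPM in the 4 IL-4eGFP+ samples, a log2 fold change of -2.46 ± 0.04 (SE, adjusted p = 1.3e-11 by edgeR). *S1pr1* was at 168 to 177 CPM in IL-4eGFP- and at 44.4 to 79.1 CPM in IL-4eGFP+ cells, a log2 fold change of -1.77 ± 0.07 (SE, adjusted p = 7.5e-09 by edgeR). Each gate was 1 library with 4 hashtag samples from 2 mice. The SE and p-values between gates thus measure the spread between those samples only, not between libraries.

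Both transcription factors were lower as well. *Klf2* was at 585 to 614 CPM in IL-4eGFP- and at 212 to 318 CPM in IL-4eGFP+ cells (log2 fold change -1.35 ± 0.06, SE), and *Foxo1* at 124 to 139 CPM and 65.8 to 81.0 CPM (-1.04 ± 0.06, SE). For these 4 genes every IL-4eGFP+ sample lay below every IL-4eGFP- sample, as did 15.6% of all genes tested, while 41.9% lay above. *S1pr4* and *Cd69* differed least. *S1pr4* was at 77.7 to 94.8 CPM in IL-4eGFP+ and at 76.3 to 88.8 CPM in IL-4eGFP- cells, with a log2 fold change of -0.20 ± 0.06 (SE, adjusted p = 0.011 by edgeR) after scaling and -0.0049 for the unscaled CPM, and the call was lost with DESeq2 (adjusted p = 0.067) and without medLN IL-4eGFP- of mouse 1 (adjusted p = 0.051). *Cd69* was at 67.9 to 73.0 CPM and 71.7 to 82.1 CPM, with -0.30 ± 0.05 (SE, adjusted p = 0.00037 by edgeR), which became 0.075 (adjusted p = 0.24) without cycling cells. Cycling cells were 18.1% to 21.5% of IL-4eGFP+ and 2.98% to 4.45% of IL-4eGFP- cells. Unscaled CPM ratios lay 0.17 above the scaled log2 fold changes at the median of all genes.

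**Figure D3:**
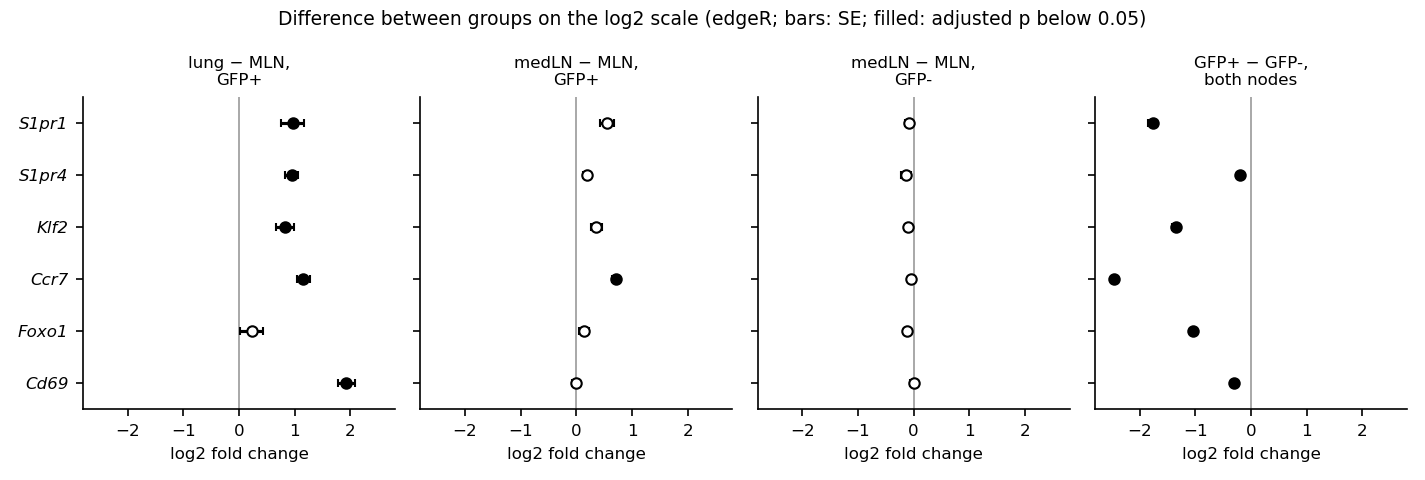
Log2 fold change of the 6 genes in 4 comparisons, with the standard error as bars and filled points for an adjusted p below 0.05 by edgeR. Lung exceeds MLN for 5 genes, medLN exceeds MLN for *Ccr7* in IL-4eGFP+ cells, and all 6 are below 0 in IL-4eGFP+ against IL-4eGFP- cells, of which *Cd69* turned to 0.075 without cycling cells.

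At full depth, the *Klf2* UMIs of IL-4eGFP+ cells were concentrated in fewer cells. Cells with at least 5 *Klf2* UMIs made up 7.68% to 11.4% of IL-4eGFP+ cells and held 67.3% to 78.3% of the UMIs. Among IL-4eGFP- cells, 12.8% to 14.5% reached this limit and held 38.8% to 43.0%. With cells thinned to 1500 UMIs the contrast was smaller. Cells with at least 3 *Klf2* UMIs then held 43.2% to 52.8% of the UMIs in IL-4eGFP+ and 39.5% to 42.4% in IL-4eGFP- samples. At 1500 UMIs per cell, 15.3% to 25.0% of IL-4eGFP+ and 52.5% to 53.6% of IL-4eGFP- cells had a *Klf2* UMI. For *Ccr7* the shares were 6.44% to 11.96% and 36.6% to 39.3%, for *S1pr1* 6.18% to 11.1% and 22.1% to 24.0%, and for *Foxo1* 10.7% to 14.1% and 16.9% to 18.7%. The shares overlapped for *S1pr4* (10.8% to 12.9% and 11.1% to 13.2%) and for *Cd69* (7.75% to 9.07% and 8.05% to 9.55%).

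Within the second run, *Ccr7*, *S1pr1*, *Klf2* and *Foxo1* were thus highest in IL-4eGFP- cells, whose nodes overlapped for *Ccr7*, *S1pr1* and *Foxo1*, followed by IL-4eGFP+ cells of medLN and MLN, which overlapped for *Foxo1*. The group mean of *S1pr4* was highest in lung, at 101 ± 15.8 CPM (SD, n = 2), and lowest in MLN of the first run, at 57.0 ± 0.0859 CPM, with the 4 groups of the second run between them at 78.7 to 90.7 CPM. Such an order across the runs is a description only. In IL-4eGFP+ cells of MLN, *Klf2* was at 49.5 and 51.9 CPM in the first run and at 212 and 260 CPM in the second. *Foxo1* was at 37.4 and 32.8 CPM against 65.8 and 70.4 CPM.

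Other genes of the pathways were examined in lists, each described by its counts, which stand beside 31.0% of all genes called in lung against MLN and 62.1% between gates. The lists, like the 6 genes, were chosen with earlier results of these data known. Of the 18 symbols listed for S1P signalling and egress, which name 17 genes, 12 were tested in lung against MLN. Of these 12, 4 were higher, 2 lower and 6 not called (median log2 fold change 0.14). *P2ry10*, a receptor for lysophospholipids, was higher (2.48 ± 0.17, SE), as were *Gna13* (1.08), a G protein subunit that acts downstream of S1P receptors, and *Rasgrp2* (0.81), an activator of Rap1. *S1pr2*, a receptor that confines cells to germinal centers (-0.74 ± 0.16, SE), and *Sphk2* (-0.55), a kinase that makes S1P, were lower. In IL-4eGFP+ against IL-4eGFP- cells, 3 of these 12 genes were higher and 6 lower, beside the 62.1% of all genes called, with *S1pr2* at 1.47 ± 0.16 (SE), *Gna13* at 0.43, *Rasgrp2* at -1.09 ± 0.08 (SE) and *Sgpp1*, an S1P phosphatase, at -0.78. Between medLN and MLN no gene of this list was called in either gate by edgeR or DESeq2, with 1 of the 12 at an unadjusted p below 0.05 in IL-4eGFP+ and 2 in IL-4eGFP- cells.

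Of the 16 genes of entry and adhesion, 5 were higher, 2 lower and 9 not called in lung against MLN, with *Itgb1* (integrin beta 1) at 1.72 ± 0.16 (SE), *Rap1b* at 1.33 and *Selplg* at 1.32, and with *Icam2* at -1.50 ± 0.22 (SE). In IL-4eGFP+ cells of medLN against MLN, 2 genes were higher, with *Itgb1* at 2.03 ± 0.15 (SE), and 14 were not called. *Itgb1* was also higher in medLN among IL-4eGFP- cells (1.20 ± 0.08, SE). Between gates 8 of the 16 were higher and 7 lower in IL-4eGFP+ cells, with *Itgb1* at 2.04 ± 0.11 (SE), *Itgal* at 1.02 and *Gpr183*, a receptor that guides cells within the node, at 0.99.

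Of the 15 regulators of quiescence and the naive state, none was higher and 13 were lower in IL-4eGFP+ cells (median log2 fold change -0.74), led by *Bach2* (-2.86 ± 0.08, SE), *Lef1* (-1.69), *Il7r* (-1.54) and *Klf13* (-1.52). *Klf2* and *Foxo1* fell together with this list. In lung against MLN, by contrast, 7 were higher and 2 lower, with *Klf6* at 2.66 ± 0.22 (SE), *Il7r*, the receptor for interleukin-7, at 2.48, *Tob1* at 2.29 and *Klf7* at 2.17, but *Tcf7* at -1.89 ± 0.12 (SE) and *Lef1* at -1.30. Of the retention and residency genes, 14 of 14 tested were higher in lung (median 2.44), among them *Ccr8* (6.05 ± 0.24, SE), *Rgs2* (5.75), *Nr4a2* (5.21) and *Il1rl1*, the receptor for IL-33 (5.03). This list does not separate residency from activation or tissue digestion, whose part was not tested. Between gates, 7 of 14 were higher and 2 lower in IL-4eGFP+ cells, again beside the 62.1% of all genes called, with *Cxcr6* at 4.17 ± 0.13 (SE), *Il1rl1* at 3.61, *Ahr* at 2.31 and *Cd44* at 1.55. In medLN, *Itgae* (-0.998) and *Cxcr6* (-0.46) were lower than in MLN among IL-4eGFP+ cells and *Il7r* (0.59) was higher. The early response genes had 14 higher and 1 lower of 15 in lung (median 2.71), with *Dusp1* at 4.78 ± 0.34 (SE), *Ier3* at 4.54 and *Fos* at 4.38, and with *Atf3* at 45.6 and 41.2 CPM in lung and 0.0692 and 0.449 CPM in MLN, and 5 higher and 5 lower of 13 in IL-4eGFP+ cells, with *Ier3* at 3.50 and *Jun* at -1.78.

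Co-detection in single cells was expressed as the share of thinned cells with both genes divided by the product of their shares, so that 1 stands for unrelated detection. Of the 15 pairs, 5 were above 1 in all 12 samples, *S1pr1* with *S1pr4*, *Klf2* and *Ccr7*, and *Klf2* with *S1pr4* and *Ccr7*, and the same 5 pairs did so at 2500 UMIs per cell. The ratio of *S1pr1* and *Klf2* was 2.78 to 4.87 in lung, 4.88 to 4.93 in MLN, 2.28 to 3.33 in IL-4eGFP+ and 1.17 to 1.24 in IL-4eGFP- hashtag samples. *Klf2* was thus found in 27.2% and 25.0% of lung cells with *S1pr1* and in 3.82% and 6.87% of those without it. In MLN these shares were 25.0% and 26.7% against 3.93% and 4.11%. In IL-4eGFP+ hashtag samples they were 50.8% to 60.5% against 12.9% to 21.0%. IL-4eGFP- cells had *Klf2* in 61.7% to 65.9% with and in 49.5% to 50.5% without *S1pr1*. In the first run 12 to 33 cells per sample held both *S1pr1* and *Klf2*. The other 4 pairs rest on fewer cells in MLN 2, with 10 cells for *S1pr1* and *S1pr4*, 5 for *Klf2* and *Ccr7*, 4 for *S1pr1* and *Ccr7* and 4 for *S1pr4* and *Klf2*.

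For *Klf2* and *Ccr7* the ratio was 3.95 to 4.61 in lung, 2.29 to 4.01 in MLN, 1.24 to 2.18 in IL-4eGFP+ and 1.04 to 1.07 in IL-4eGFP- cells, and for *S1pr1* and *Ccr7* 3.05 to 5.31, 1.67 to 3.30, 1.13 to 2.63 and 1.07 to 1.15. The ratios were lowest in IL-4eGFP- cells, in which each gene was also most frequent. A high frequency limits the ratio. Pairs with *Cd69* were mostly below 1: *Klf2* and *Cd69* exceeded 1 in 1 of the 12 samples (0.50 to 1.12), and *S1pr1* and *Cd69* in 4 (0.59 to 1.20). In lung, 29.2% and 29.6% of cells had *Cd69* without *S1pr1*, and 1.77% and 4.13% had both. The ratio of this pair in lung was 0.76 and 1.05, on either side of 1 in the 2 mice. A cell without a UMI can still express the gene at this depth, and no cell type that lacks these genes was sorted, so the background from free RNA was not measured.

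**Figure D4:**
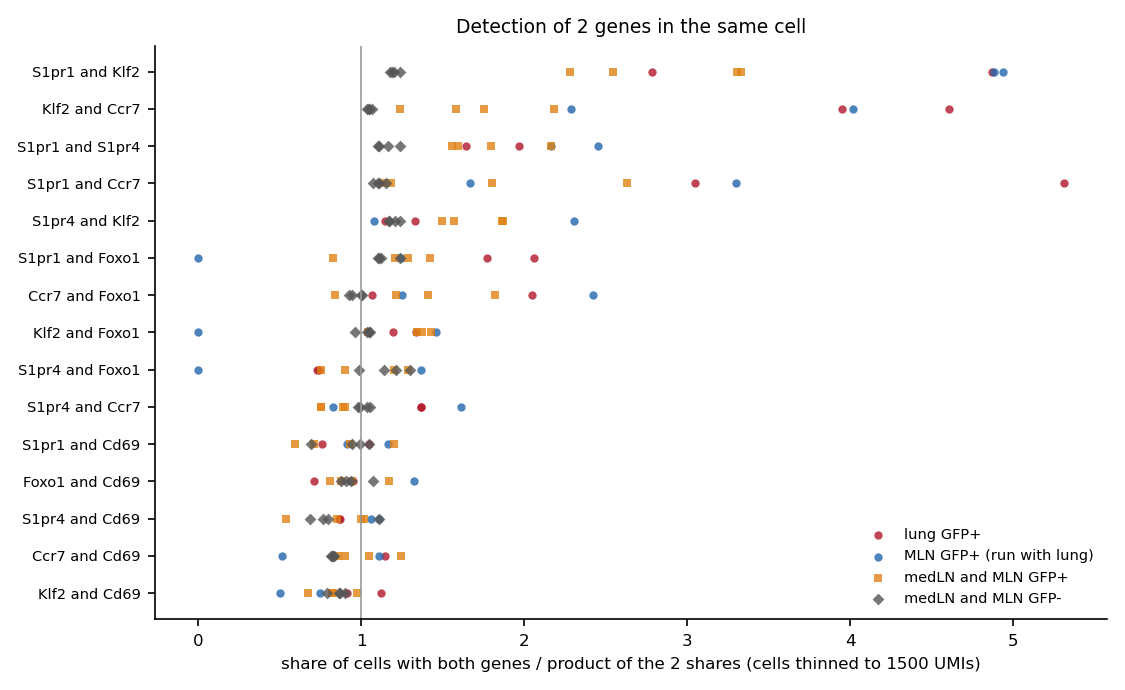
Co-detection ratio (linear axis) of the 15 pairs of genes in the 12 samples, ordered by the median, with a line at 1 and cells thinned to 1500 UMIs. All points of 5 pairs lie above 1, the IL-4eGFP- samples (gray diamonds) lie closest to 1 for *S1pr1* and *Klf2*, and most points of the pairs with *Cd69* lie below 1.

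At least 3 of the 5 genes other than *Cd69* were found together in 2.14% and 3.16% of lung cells (23 and 13 cells), in 1.02% and 0.533% of MLN cells (25 and 4 cells), in 2.25% to 4.71% of IL-4eGFP+ and in 14.5% to 16.2% of IL-4eGFP- hashtag cells. None of the 5 was found in 71.2% and 63.3% of lung, 77.1% and 75.1% of MLN, 51.2% to 63.7% of IL-4eGFP+ and 18.5% to 19.9% of IL-4eGFP- cells. At least 3 of these transcripts were thus found together most often in IL-4eGFP- cells, and in a small group of cells of each IL-4eGFP+ sample. *S1pr1*, *Klf2*, *Ccr7* and *Foxo1* were each also most frequent in IL-4eGFP- cells. Such a joint share rises with the shares of the single genes, and the part beyond these was not calculated.

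The 6 genes were then described by further genes that mark T cell states, each read as a UMI at 1500 UMIs per cell. *Cxcr5* directs follicular helper cells to the B cell follicle. In all 8 samples with at least 20 cells with *Cxcr5*, *S1pr1*, *S1pr4*, *Klf2* and *Ccr7* were each less frequent in cells with *Cxcr5* than in those without. *Klf2* was in 2.46% and 0.893% of MLN cells with *Cxcr5* (447 and 112 cells) against 5.65% and 6.27% without, and in 4.12% to 6.36% against 16.9% to 27.0% in the IL-4eGFP+ hashtag samples. *Ccr7* was in 0.847% to 7.06% of cells with and 6.91% to 12.4% of cells without *Cxcr5* in these samples. The lung held only 11 and 3 cells with *Cxcr5*, and in these few cells *Klf2* was not less frequent, at 45.5% and 66.7% against 5.17% and 8.56%.

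*Il13*, an effector cytokine, separated cells in a similar way. In lung, 181 and 30 cells had *Il13*, of which 1.10% and 3.33% had *S1pr1* against 8.84% and 12.3% of the others. *Klf2* was in 1.66% and 3.33% against 6.38% and 9.42%, and *Ccr7* in 2.76% and 3.33% against 7.27% and 7.85%. These 3 genes were less frequent with *Il13* in all 5 samples with at least 20 such cells. *Cd44*, high on effector and memory cells, went with a lower *Klf2* share in 12 of 12 samples and a lower *Ccr7* share in 11 of 12. The *S1pr1* share was lower with *Cd44* in 8 of 12 samples, and was higher in 3 of the 6 IL-4eGFP+ node samples. In lung, 324 and 151 cells had *Cd44*, of which 3.70% and 2.65% had *Klf2* against 6.39% and 12.6% of the others, and 3.395% and 3.97% had *Ccr7* against 7.86% and 9.58%. In cells with *Foxp3*, the factor of regulatory T cells, *Foxo1* was more frequent and *S1pr1* less frequent in the 6 samples with at least 20 such cells. The medLN IL-4eGFP+ samples of mice 1 and 2 were below that limit, and there *S1pr1* was more frequent, at 16.7% and 27.8% of 12 and 18 cells with *Foxp3* against 11.1% and 7.80% of the others, with *Foxo1* at 8.33% and 16.7% against 11.8% and 14.0%. *Mki67* cells had a higher *S1pr4* share in 8 of 9 samples and a lower *Foxo1* share in 8 of 9, counting samples with at least 20 such cells. Their *Klf2* share was higher in 2 of 2 lung and 5 of 5 IL-4eGFP+ node samples, and in 0 of 2 IL-4eGFP- samples. *Ccr9*, a gut homing receptor, went with a lower *Ccr7* share in 9 of 9 samples by the same limit.

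**Figure D5:**
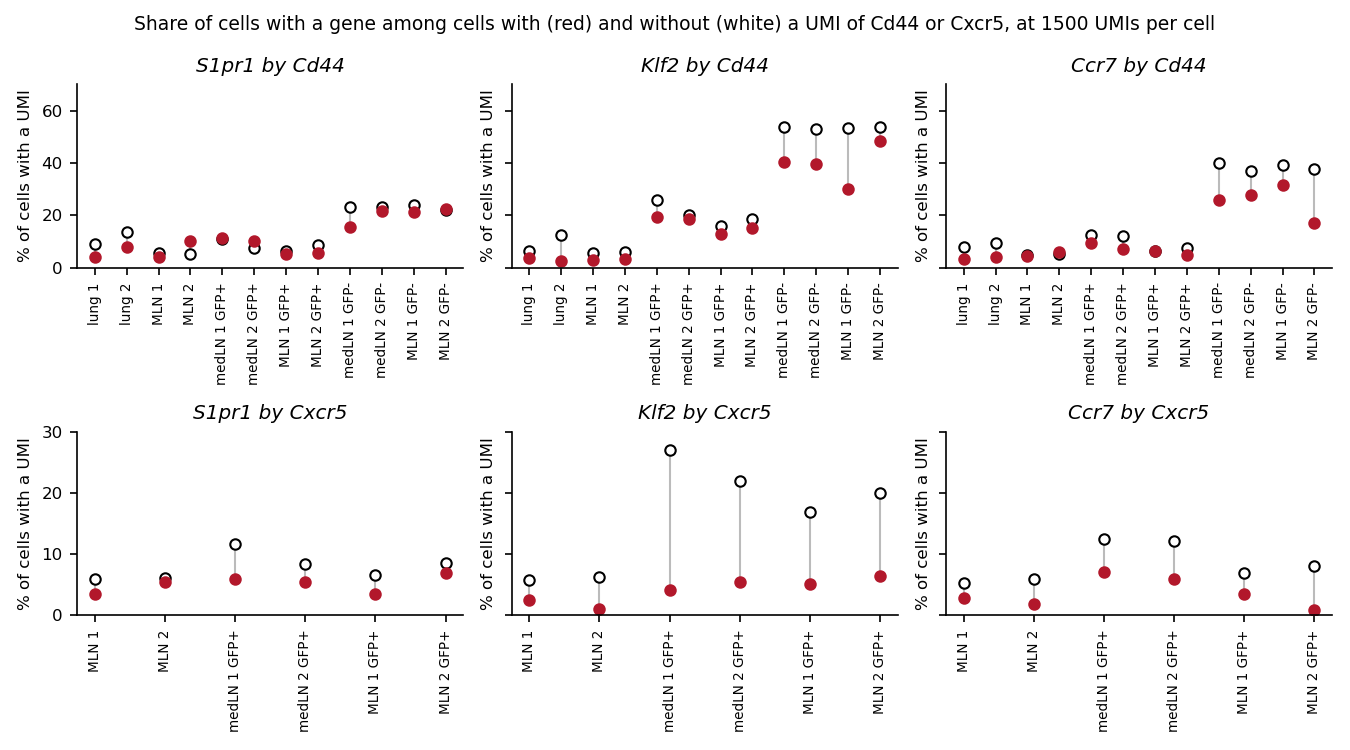
Share of cells (%, linear axis) with a UMI of *S1pr1*, *Klf2* or *Ccr7* among cells with (red) and without (white) a UMI of *Cd44* (top, 12 samples) or *Cxcr5* (bottom, 6 IL-4eGFP+ node samples), at 1500 UMIs per cell. Red points lie below white for *Klf2* with *Cd44* in 12 of 12 samples and for the 3 genes with *Cxcr5* in all 6.

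TCR clones found in both organs of a mouse mark related cells in lung and MLN. In lung 1, 142 cells of 105 clones shared with MLN had *Ccr7* in 2.82%, against 7.07% of the other 933 cells, and *S1pr1* in 4.93% against 7.93%. In lung 2, 32 cells of 21 shared clones had *Ccr7* in 3.12%, which is 1 cell, against 7.89%, and *S1pr1* in 18.8% against 11.1%, so that *S1pr1* went in opposite directions in the 2 mice. *Cd69* was at 35.2% and 37.5% of shared against 30.3% and 33.4% of other lung cells. In MLN 1, *Ccr7* was in 5.38% of the 186 cells of shared clones and in 4.78% of the others. These small numbers do not allow a difference to be shown.

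The genes most like each member were found by Pearson's r of log2 CPM over the 12 samples, centered within each run, among 2958 genes that were no members. Between members r was highest for *S1pr1* and *Klf2* (0.996), *S1pr1* and *Ccr7* (0.974) and *Klf2* and *Ccr7* (0.969). The 12 points share libraries and 2 gates, so r is a description only. Outside the members, *S1pr1* (r = 0.983) and *Klf2* (0.975) were most like *Stk38*, and *Rasa3* was among the 3 such genes most like each of them (0.963 and 0.959). *Ccr7* was most like *Rabac1* (0.990) and *Stk38* (0.988). *S1pr4* was most like *Akap13* (0.961), *Foxo1* most like the ribosomal protein genes *Rps14* (0.963) and *Rpl26* (0.953), and *Cd69* most like *Dusp1* (0.990), *Ppp1r15a* (0.987) and *Tnfaip3* (0.985), genes induced early after stimulation.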

How the data were processed

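Per the labels and the study's methods, the authors deposited UMI counts per gene and cell, aligned to mm10 and counted with Cell Ranger (2.1.1, 3.0.1 and 6.1.2 in the submitters' processing notes), with no normalization. A cell was kept if its UMIs and its detected genes each exceeded 500, its mitochondrial share was below 7% and its novelty score above 0.8, and in the lung and MLN run also a productive TCR alpha and beta contig. Hashtags were assigned with HTODemux of Seurat 5.3.0, which left out 1256 and 1280 doublets and 52 and 70 negative cells. No doublet caller was run on the first run. TCR genes (269) were left out of tests.

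UMI counts were summed per sample, filtered with filterByExpr, scaled by TMM and tested with the quasi-likelihood test of edgeR 4.0.16 in R 4.3.3 (two-sided, Benjamini-Hochberg adjustment over all genes tested, threshold 0.05). DESeq2 1.42.0 was an alternative. The script was tested on simulated data. CPM are unscaled. Cells were thinned to 1500 UMIs for shares, and to 1000 or 2500 as alternatives. Intervals of shares of cells are 95% Clopper-Pearson. Those of log2 fold changes are 95% by the normal distribution from the SE, which is too narrow with 2 samples in each group. Python 3.11.15, numpy 2.4.6, scipy 1.17.1, pandas 2.3.3 and matplotlib 3.10.9 were used. The 12 samples were grouped by the labels. Within a run, same-numbered samples were taken as from 1 mouse, which the hashtag labels name in the second run. In the first run, lung and MLN of the same number shared 105 and 21 TCR clones, and those of different numbers shared 0. Deviations from group means correlated within mice at 0.0398 (lung and MLN), 0.235 (IL-4eGFP+ nodes) and 0.117 (IL-4eGFP- nodes). Genes named from the lists were up to 4 of those called with the largest log2 fold change, and further called members were named after their values were seen. The 6 genes and the lists were chosen with earlier results of these data known. The total UMIs of the samples set the precision. Results for 1 gene of the lists are not reported here.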

Additional observations from a re-analysis of the deposited data

Results flagged for a closer look

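*S1pr4* in medLN IL-4eGFP- of mouse 2, at 76.3 CPM, stood apart from the other 3 IL-4eGFP- node samples, at 87.3 to 88.8 CPM, by Dixon's test. Chance flags about 1 in 20 groups. The medLN-MLN difference of *Ccr7* differed between the gates by 0.767 on the log2 scale (adjusted p = 0.0027 by edgeR, in the fit with both gates), being 0.71 in IL-4eGFP+ and -0.053 in IL-4eGFP- cells.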

How the results depend on the processing

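Over all alternatives, 395 of the 420 values of the 6 genes kept direction and side of the threshold, 14 turned, 8 passed and 3 lost the threshold, and of 75 counts 49 stayed within 1.5 times. For lung against MLN the number of genes called was 1695 with DESeq2 and 2076 with sums thinned to the smallest sample, and 1918 to 3673 leaving out 1 sample. *Foxo1* was -0.29 without lung 1 and 0.50 without lung 2. For medLN against MLN in IL-4eGFP+ cells, 47 genes were called with no filter on low counts and 13 to 166 leaving out 1 sample. *S1pr1* passed with DESeq2 (0.56) and with 8 samples in 1 fit (0.56, adjusted p = 0.032 by edgeR), and *Klf2* with DESeq2 and without MLN 2 (0.53, adjusted p = 0.024 by edgeR). *Cd69* ranged from -0.055 to 0.035 (without medLN 1) leaving out 1 sample and was 0.046 without cycling cells and 0.036 without *Foxp3* cells. In IL-4eGFP- cells, 2 genes were called with no filter, 12 without cycling cells, 6 without *Foxp3* cells, 5 with 8 samples in 1 fit and 98 to 194 leaving out 1 sample. There *Ccr7* was 0.0081 and *Cd69* -0.00035 without *Foxp3* cells, and *Cd69* was -0.076 without medLN 2, -0.035 without MLN 2 and at most 0.082 leaving out 1 sample. Between gates *Cd69* was 0.075 without cycling cells. For the difference between gates, 34 genes were called with DESeq2, 68 with no filter, 10 without *Foxp3* cells and 4 to 13 leaving out 1 sample. *S1pr1* (0.66) and *Klf2* (0.47) passed with no filter, and *S1pr1* without medLN IL-4eGFP+ 2 (0.82). *Cd69* turned to 0.032 without medLN IL-4eGFP+ 1, 0.068 without medLN IL-4eGFP- 2 (from -0.097 leaving out 1 sample), 0.014 without MLN IL-4eGFP- 2, 0.010 without cycling cells and 0.044 without *Foxp3* cells. Between lung and MLN, 68.8% of all genes tested were without overlap by CPM, and this was not calculated for shares of cells. Shares of 3 genes, not 5, were without overlap between lung and MLN at 1000 UMIs. *S1pr1* was then in 4.07% and 10.3% of lung cells against 4.84% and 4.91% of MLN cells. *Klf2* was in 5.27% and 6.97% against 3.86% and 5.31%. The causes were not tested. With the mouse as a replicate block, 65 genes were called in IL-4eGFP- cells and 44 in the difference between gates, and the pairing changed no call of the 6 genes.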
